A study of Mus musculus with 6 samples.

Results

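Rbfox1, Rbfox2, Rbfox3, Nova1, Nova2, Elavl2, Elavl3, Elavl4, Ptbp1 and Ptbp2 encode RNA-binding proteins that set which exons are joined and how long transcripts last as neural progenitors become neurons. These 10 genes, of 17348 in the deposited table, were chosen by symbol, with no measured value in the rule, and are described here in the cortex of Ybx1 conditional knockout (cKO) and control (Ctrl) mouse embryos at E18.5. RNA-seq was performed on 3 Ctrl and 3 cKO libraries of cortical mRNA. The cKO embryos were Nestin-Cre, Ybx1 fl/fl, in which exons of Ybx1 flanked by loxP sites are removed by Cre under the Nestin promoter. Nestin-Cre acts in neural progenitors and their progeny. Vessel cells, microglia and blood cells of the tissue would then keep the gene, which was not measured here. The control libraries carry the label WT, while the study designates Ybx1 fl/fl animals without Cre as Ctrl and elsewhere calls the RNA-seq controls wild-type littermates. Founders were on a C57BL/6J background. How many embryos went into a library is not given in the sources used here, so p-values measure only the spread between these libraries. Ybx1 encodes a cold-shock domain protein that reads 5-methylcytosine in mRNA, and the comparison asks how the cortical transcriptome differs once it is lost.

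The 4 families act in different ways on the same transcripts. Rbfox proteins bind UGCAUG elements beside alternative exons and favour or block their inclusion according to the side on which they sit. Nova proteins bind clusters of YCAY elements in transcripts of synaptic proteins. The neuronal Elavl proteins, also called HuB, HuC and HuD, bind U-rich and AU-rich elements, many of them at the 3' ends of mRNAs, and are known as stabilizers. Ptbp1 binds pyrimidine-rich tracts and represses neuronal exons in progenitors, and its paralog Ptbp2 takes its place in young neurons, where repression is weaker. In the developing cortex the fall of Ptbp1 and the rise of Ptbp2 are a textbook mark of the step from progenitor to neuron.

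The exon through which the Ptbp switch is known to run is shown first, since a change of Ptbp1 activity would be read there. In GENCODE M21 on build GRCm38, exon 10 of the 14 exons of the main Ptbp2 transcript lies at chr3:119724612-119724645 on the minus strand and has 34 bases. It is printed as in the spliced transcript, with its 34 bases in capitals. The 20 bases in lower case on each side belong to the adjoining exons, not to introns.
Ptbp2 exon 10: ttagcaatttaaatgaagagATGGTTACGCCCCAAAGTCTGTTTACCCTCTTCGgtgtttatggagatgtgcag
Of the 13 annotated Ptbp2 transcripts, 3 hold this exon and 2 join exon 9 to exon 11, and both that skip it are annotated as targets of nonsense-mediated decay. Ptbp1 is known to promote this skipping. The deposited table is summed by gene and holds no exon counts, so inclusion of exon 10 was not measured here.

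How far reads of one paralog could be mistaken for another was read from the coding sequences. Within families, identity of the coding sequence was 70.2% for Nova1 and Nova2, 70.9% for Ptbp1 and Ptbp2, 71.9 to 73.3% among the Rbfox genes and 76.4 to 78.3% among the neuronal Elavl genes. The longest stretch shared without a mismatch had 29 bases, in Rbfox1 with Rbfox2 and in Elavl3 with Elavl4. It is printed in capitals, with 15 coding bases on each side in lower case.
Rbfox1: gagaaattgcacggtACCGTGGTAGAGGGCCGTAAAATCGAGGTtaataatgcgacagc
Rbfox2: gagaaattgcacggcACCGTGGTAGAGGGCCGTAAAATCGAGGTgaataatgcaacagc
Elavl3: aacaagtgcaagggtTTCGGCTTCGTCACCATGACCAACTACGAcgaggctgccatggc
Elavl4: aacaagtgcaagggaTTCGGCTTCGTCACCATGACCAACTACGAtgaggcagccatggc
The Rbfox1 stretch joins exons 5 and 6 between positions 7292251 and 7294071 of chromosome 16, and that of Rbfox2 joins exons 6 and 7 between 77102938 and 77105603 of chromosome 15. Those of Elavl3 and Elavl4 lie within exon 7 of each gene, at chr9:22018600-22018628 and chr4:110206429-110206457. In the other pairs of paralogs the longest shared stretch had 14 to 23 bases.

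Targeted Ybx1 was examined before the regulators. It was at 1089 ± 182 CPM (counts per 1000000 of the TMM-scaled library total; SD, n = 3) in Ctrl and 24.6 ± 0.519 CPM in cKO, a log2 fold change of -5.47 (SE 0.164, edgeR adjusted p = 6.95e-07), which left 2.25% of the Ctrl level. Library totals were 15091951 to 16885451 estimated counts, at which 3 counts equal 0.178 to 0.199 CPM. Ctrl replicate 2 stood apart: its counts, relative to the mean of all libraries, fell with transcript length by 0.249 on the log2 scale for each doubling, whereas the slope was 0.0293 to 0.0988 in the other 5 libraries. In GENCODE M21, 7 of the 10 regulators have a longest transcript above the median of 3555 bases of the genes tested. Values without Ctrl replicate 2 are therefore given beside several results below, and ranges with single libraries left out are given at the end. All 4 Y-linked genes examined were lower in cKO, so that the sex of the embryos and the genotype cannot be told apart. Their summed levels were 218 to 286 CPM in Ctrl and 0.956 to 1.48 CPM in cKO, here per 1000000 of the unscaled total. In that unit, pan-neuronal markers summed to 6105 to 7147 CPM in Ctrl and 6283 to 6984 CPM in cKO, the most abundant of the 14 marker lists. Choroid plexus markers summed to 0.446 CPM or less in every library.

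With all 6 libraries, no regulator passed the adjusted threshold between cKO and Ctrl. In Rbfox1 and Elavl3 every cKO library was lower than every Ctrl library, and Elavl2 passed in 1 alternative fit, without Ctrl replicate 2. All 10 passed the filter on low counts, with 530 to 17674 estimated counts per library, and 0 had an adjusted p under 0.05 in edgeR's quasi-likelihood test, where 10 of 13570 genes (0.0737%) did. None had an unadjusted p under 0.05 in edgeR, against 6.62% of the 13570 genes. DESeq2, run without the filter on low counts, gave 0 at the adjusted threshold and 1 at the unadjusted, where 4.98% of 17322 genes passed. The log2 fold changes ran from -0.27 for Elavl2 to 0.13 for Rbfox3, 5 above 0 and 5 below, with a median of -0.0080 beside 0.0027 for all genes tested. Taken over all 10 genes, the 95% intervals of the log2 fold change reached from -0.62 to 0.37, that is from 0.649 to 1.29 of the Ctrl level. In cortical tissue, fewer cells of a type and less RNA per cell cannot be told apart in any of these values.

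**Figure D1:**
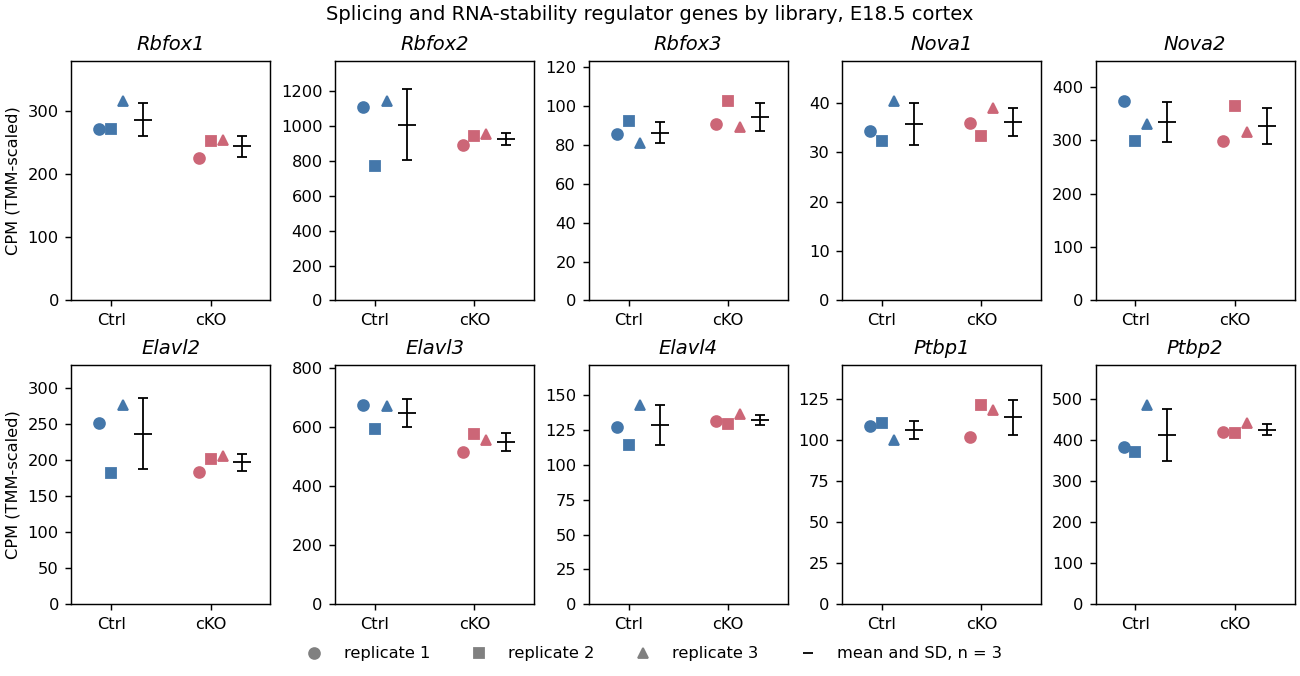
Level of each regulator in each library, in CPM on a linear axis that starts at 0, for the 3 Ctrl (blue) and 3 cKO (red) libraries. Symbols mark the replicate number and bars the mean and SD; the groups are apart only for Rbfox1 and Elavl3, both lower in cKO.

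Rbfox1, the family member with the longest gene, lies at chr16:5885355-7411526 on the plus strand and is switched on in neurons. Its level was 272, 272 and 317 CPM in Ctrl replicates 1 to 3 and 226, 253 and 255 CPM in cKO replicates 1 to 3. All 3 cKO libraries lay under the lowest Ctrl library. The means were 287 ± 25.8 and 245 ± 16.4 CPM (SD, n = 3), a log2 fold change of -0.23 (SE 0.114, 95% interval -0.49 to 0.028, edgeR adjusted p = 0.795). In CPM, 2 of the 10 regulators, Rbfox1 and Elavl3, were lower in every cKO library and 0 were higher in every one, where 6.93% and 7.35% of all genes tested were. With the TPM values the groups overlapped.

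Rbfox2 (chr15:77078990-77307004, minus strand) is the broadly expressed member, active in progenitors as well as neurons. It reached 1108, 774 and 1143 CPM in Ctrl and 889, 941 and 952 CPM in cKO. Here Ctrl replicate 2 was the lowest of all 6 libraries and the other 2 Ctrl libraries were the highest. Across all libraries the log2 fold change was -0.12 (SE 0.156, interval -0.47 to 0.23, adjusted p = 0.911), and without Ctrl replicate 2 it was -0.28 (adjusted p = 0.173). Without Ctrl replicate 1 or 3 it was -0.048 or -0.021 instead. Rbfox3 (chr11:118489762-118911597, minus strand) encodes NeuN, the antigen used to count mature neurons. Its levels were 85.5, 92.2 and 81.1 CPM in Ctrl and 90.8, 102 and 89.1 CPM in cKO, with overlap between the groups. The log2 fold change was 0.13 (SE 0.108, interval -0.12 to 0.37, adjusted p = 0.862).

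Nova1 (chr12:46694517-46818929, minus strand), in the adult best known from hindbrain and spinal cord, was the scarcest of the regulators. It was counted at 34.4, 32.3 and 40.4 CPM in Ctrl and at 36.0, 33.4 and 39.0 CPM in cKO. The ranges were nearly the same, and the log2 fold change was 0.019 (SE 0.125, interval -0.26 to 0.30, adjusted p = 0.984). Nova2 (chr7:18925888-18965319, plus strand), the main cortical member, was at 373, 298 and 331 CPM in Ctrl and 299, 363 and 316 CPM in cKO. Each group held both a high and a low library, and the log2 fold change was -0.035 (SE 0.128, interval -0.32 to 0.25, adjusted p = 0.967). The sign of the Nova1 value turned with a length and GC correction (-0.11), and that of either Nova gene turned when single libraries were left out.

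Among the neuronal Elavl genes, Elavl2 (HuB, chr4:91250763-91400785, minus strand) had the largest fitted change of the 10 regulators. It is among the earliest Hu genes to be switched on in newborn neurons. Its level was 252, 181 and 277 CPM in Ctrl and 184, 202 and 205 CPM in cKO. Ctrl replicate 2 fell below every cKO library, while Ctrl replicates 1 and 3 were above all of them. With all 6 libraries the means were 237 ± 49.6 and 197 ± 11.5 CPM and the log2 fold change was -0.27 (SE 0.158, interval -0.62 to 0.091, edgeR adjusted p = 0.819). Without Ctrl replicate 2 it was -0.43 with an adjusted p of 0.0488 by edgeR, in a fit in which 122 of 13687 genes (0.891%) passed. This was the one call of a regulator under any of the fits run, and its adjusted p ranged from 0.0488 to 0.9999 over the 13 alternatives. Ctrl then held 2 libraries against 3.

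Elavl3 (HuC, chr9:22015005-22052023, minus strand), which is expressed throughout postmitotic neurons, was at 675, 591 and 671 CPM in Ctrl and 516, 575 and 555 CPM in cKO. Every cKO library was lower than every Ctrl library. The means of 646 ± 47.3 and 549 ± 30.0 CPM gave a log2 fold change of -0.24 (SE 0.111, interval -0.49 to 0.016, edgeR adjusted p = 0.777), and its adjusted p was the lowest of the 10. DESeq2 gave the same gene an unadjusted p of 0.0433 and an adjusted p of 0.719. Elavl4 (HuD, chr4:110203722-110351909, minus strand), known for holding Gap43 mRNA stable in growing axons, showed 128, 115 and 143 CPM in Ctrl and 132, 129 and 136 CPM in cKO. The cKO libraries sat inside the Ctrl range, with a log2 fold change of 0.044 (SE 0.113, interval -0.21 to 0.30, adjusted p = 0.951). Without Ctrl replicate 2 the Elavl4 value was -0.032.

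Ptbp1 (chr10:79854427-79864771, plus strand), the repressor of neuronal exons in progenitors, was at 108, 110 and 99.7 CPM in Ctrl and 101, 121 and 118 CPM in cKO. The lowest cKO library fell among the Ctrl libraries. The log2 fold change was 0.10 (SE 0.111, interval -0.15 to 0.35, adjusted p = 0.900). Its neuronal paralog Ptbp2 (chr3:119718742-119784466, minus strand) showed 383, 371 and 487 CPM in Ctrl and 420, 418 and 442 CPM in cKO. All cKO values were between the second and the highest Ctrl value, and the log2 fold change was 0.043 (SE 0.130, interval -0.25 to 0.34, adjusted p = 0.958). For Ptbp2 it was -0.029 without Ctrl replicate 2 and 0.18 without Ctrl replicate 3. Ptbp1 shares 251 exonic bases with Plppr3 on the opposite strand, and whether counting used strand is not given in the sources used here, so some of its counts could belong to that gene. Ptbp1 exons also share 437 bases with Gm17134 and 295 with E130317F20Rik, both on the opposite strand and absent from the table. Exons of Nova2 share 2652 bases with Gm26821 on the opposite strand, those of Nova1 share 310 with Gm33869 and those of Elavl3 share 256 with Gm49318, both on the same strand, and none of these 3 genes is in the table.

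**Figure D2:**
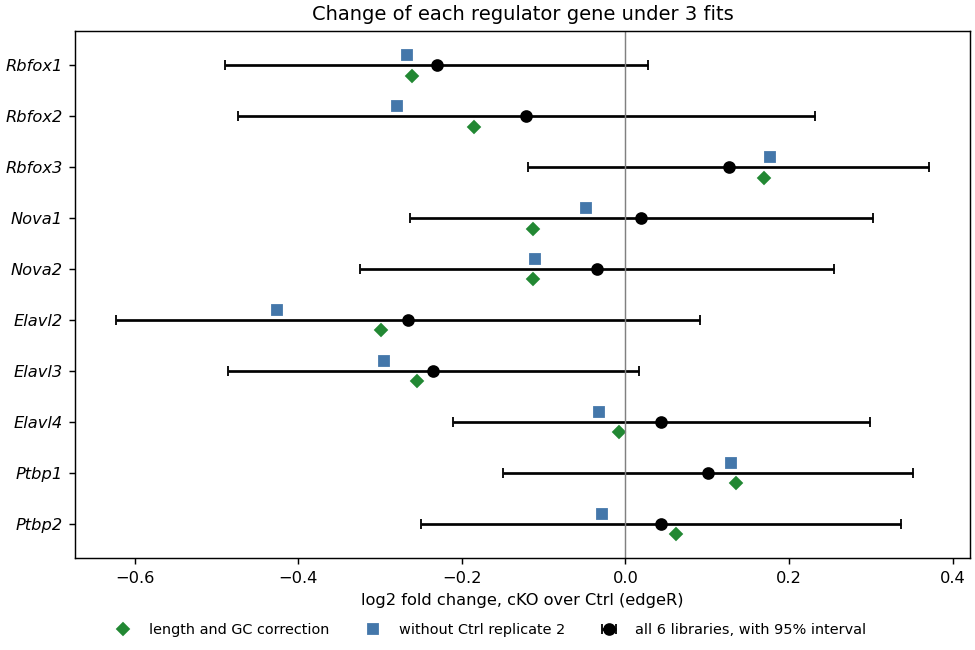
Log2 fold change of each regulator, cKO over Ctrl, by edgeR: black circles with 95% intervals for all 6 libraries, blue squares without Ctrl replicate 2 and green diamonds after removal of each library's trend on transcript length and GC. All 10 intervals cross 0, and the largest move between fits is that of Elavl2, from -0.27 to -0.43.

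Leaving out Ctrl replicate 2 moved Rbfox2 and Elavl2 more than the other 8 regulators. At an unadjusted p under 0.05, 4 of the 10 regulators were lower and 0 higher without that library, namely Rbfox1, Rbfox2, Elavl2 and Elavl3, against 6.55% of all genes called lower. After the length and GC correction on all 6 libraries, Rbfox1 (-0.26), Elavl2 (-0.30) and Elavl3 (-0.25) were lower at that threshold, against 7.24% of all genes, and 0 of 10 passed after adjustment, where 1.12% of all genes did. Their adjusted p-values under the correction were 0.234, 0.172 and 0.194 by edgeR. Rbfox3 and Ptbp1 stayed above 0 in both fits, at 0.18 and 0.13 without Ctrl replicate 2.

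Levels per transcript length, in TPM as deposited, ranked the regulators. In Ctrl, Rbfox2 (359 ± 100), Elavl3 (293 ± 44.5) and Ptbp2 (288 ± 66.0) formed the upper group, whose libraries overlapped one another. A gap without overlap followed. Rbfox1 (140 ± 21.3), Elavl2 (135 ± 36.5), Nova2 (88.7 ± 15.5), Ptbp1 (81.8 ± 4.69) and Elavl4 (75.5 ± 14.1) came next, each overlapping its neighbour. Rbfox3 (59.6 ± 1.296) and Nova1 (19.4 ± 2.47) were each apart from the gene above. In cKO the same 3 genes led, with Rbfox2 at 360 ± 11.4 TPM apart from Elavl3 and Ptbp2. There Ptbp2 (326 ± 10.6) was above Elavl3 (274 ± 14.0) without overlap, the reverse of their order in Ctrl. In Ctrl, only 2.19% of genes had a higher TPM than Rbfox2 and 44.9% a higher one than Nova1, with the other 8 regulators at 2.97 to 19.8%, so that all 10 lay in the upper part of the table.

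On the TPM scale the median gene of 13556 was higher in cKO, by a log2 difference of 0.16, of which 0.083 remained without Ctrl replicate 2. On the CPM scale the median was 0.014. TPM values were thus higher in cKO without overlap for 19.2% of genes and lower for 2.43%, against 7.35% and 6.93% on the CPM scale. Rbfox3, at 60.9, 58.4 and 59.4 TPM in Ctrl and 71.0, 77.1 and 67.9 TPM in cKO, and Ptbp1, at 86.1, 76.8 and 82.6 TPM in Ctrl and 87.0, 103 and 101 TPM in cKO, were the 2 regulators among the higher ones. Relative to the median of all genes their log2 differences in TPM were 0.11 and 0.085. The corresponding values were -0.26 for Elavl2, -0.25 for Rbfox1 and -0.25 for Elavl3. For these 5 genes the direction relative to the table was therefore the same on both scales.

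Ratios of paralogs within a library do not depend on how libraries are scaled. The Ptbp2 to Ptbp1 ratio, in which a shift from progenitor to neuronal splicing would show as a rise, was 3.16, 3.02 and 4.37 in Ctrl and 3.71, 3.08 and 3.35 in cKO in TPM. Ctrl held both the lowest and the highest value, and the difference of the log2 ratios was -0.040 (1.79 ± 0.291 in Ctrl and 1.75 ± 0.133 in cKO, exact permutation p = 0.9, two-sided). For Rbfox3 to Rbfox2, the mature-neuron over the broad paralog, the log2 ratio was -2.55 ± 0.421 in Ctrl and -2.32 ± 0.109 in cKO (difference 0.23, exact p = 0.4), with the highest value in Ctrl replicate 2. That library and Ctrl replicate 3 decided its size: the difference was 0.47 without the former (exact p = 0.1, the smallest possible) and 0.074 without the latter. Nova1 to Nova2 and Elavl3 to Elavl2 differed by 0.013 and 0.016 (exact p = 0.9 for each). The Elavl3 to Elavl2 difference was 0.12 without Ctrl replicate 2 (exact p = 0.1, the smallest possible) and -0.072 without Ctrl replicate 3. With all 6 libraries, every p adjusted over the 4 ratios was 0.9, in a design whose smallest exact p is 0.1.

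Family totals were compared next. The Rbfox genes summed to 558 ± 120 TPM in Ctrl and 562 ± 19.8 TPM in cKO, the Nova genes to 108 ± 16.9 and 116 ± 8.19 TPM, the neuronal Elavl genes to 503 ± 94.4 and 481 ± 20.6 TPM, and the Ptbp genes to 370 ± 68.1 and 423 ± 15.1 TPM. All 4 pairs of groups overlapped, and the exact permutation p-values were 0.4 to 1.0, each 1.0 after adjustment. SDs were wider in Ctrl than in cKO for all 4 sums. Without Ctrl replicate 2, every cKO library was lower than both Ctrl libraries in the Rbfox sum (log2 difference -0.16) and in the Elavl sum (-0.21), and without Ctrl replicate 3 every cKO library was higher in the Ptbp sum (0.35), each with an exact p of 0.1, the smallest possible. These are sums of TPM, a scale on which the median gene was higher in cKO by 0.16, or by 0.083 without Ctrl replicate 2. In TPM the log2 differences with all 6 libraries were 0.032 for Rbfox, 0.11 for Nova, -0.047 for Elavl and 0.21 for Ptbp. In FPKM they were -0.072, 0.010, -0.15 and 0.11.

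Within families, Rbfox2 held 63.7% ± 4.91 of Rbfox transcripts in Ctrl and 64.0% ± 0.708 in cKO, Nova2 held 81.9% ± 2.18 and 81.7% ± 2.48 of Nova transcripts, and Ptbp2 held 77.5% ± 3.40 and 77.1% ± 1.62 of Ptbp transcripts (shares of TPM, SD, n = 3). Elavl3 made up 58.5% ± 2.46 of neuronal Elavl transcripts in Ctrl and 56.9% ± 0.823 in cKO. Elavl4 was the exception among the 10 shares computed, and it was picked out after the values were seen. Its share of neuronal Elavl transcripts was 14.2, 15.4 and 15.5% in the Ctrl libraries and 18.55, 16.8 and 17.8% in the cKO libraries. No Ctrl library reached the lowest cKO library, and the means were 15.03% ± 0.695 and 17.7% ± 0.876. The exact permutation p was 0.1, the smallest that 3 libraries against 3 allow, so the design cannot bring this difference past 0.05. With 10 shares computed, a p of that size for a share is not unusual. From the estimated counts the share was 12.7% ± 0.550 in Ctrl and 15.1% ± 0.787 in cKO, also without overlap. With single libraries left out, the difference of 2.70 percentage points ran from 2.29 to 3.16. Since Elavl4 itself had a fitted log2 fold change of 0.044 while those of Elavl2 and Elavl3 were below 0, the share describes the 3 genes together and not a change of Elavl4.

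**Figure D3:**
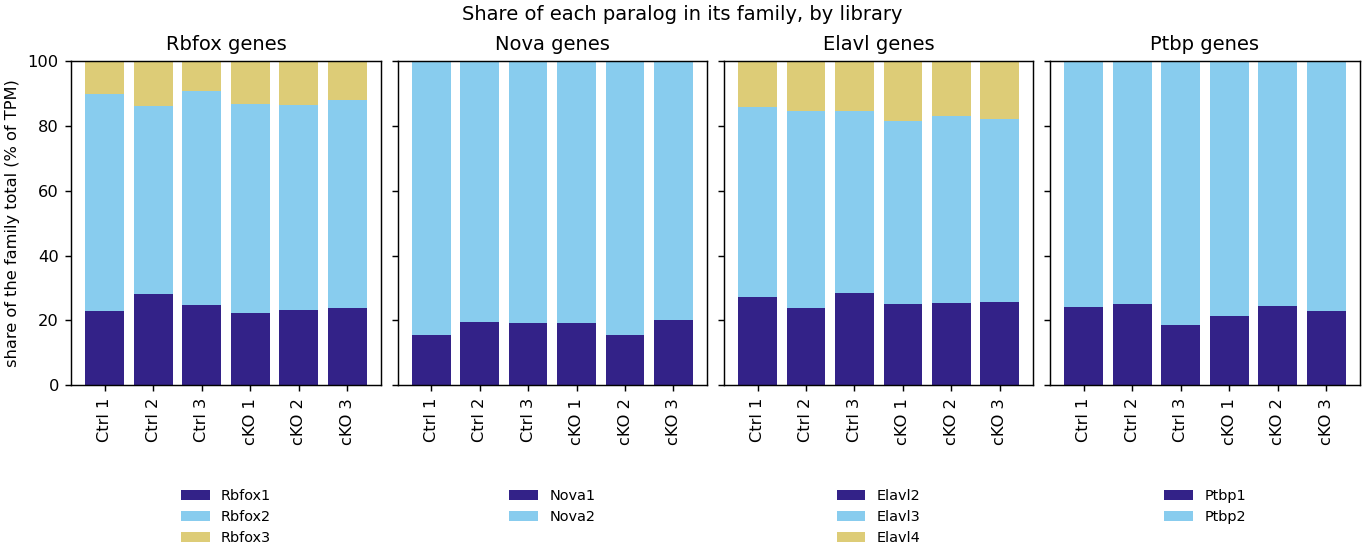
Share of each paralog in the summed TPM of its family, in percent, for each of the 6 libraries, as stacked bars that start at 0. The Elavl4 segment is 14.2 to 15.5% in Ctrl and 16.8 to 18.55% in cKO; the shares of the other 9 genes overlap between the groups.

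Isoform use was examined through the transcript length implied by each gene's estimated count and FPKM value, since that length moves when a gene's reads are assigned to longer or shorter isoforms. It averaged 4413 bases for Rbfox1, 6065 for Rbfox2, 3076 for Rbfox3, 3971 for Nova1, 8069 for Nova2, 3792 for Elavl2, 4721 for Elavl3, 3657 for Elavl4, 2757 for Ptbp1 and 3081 for Ptbp2. The value for Rbfox1 exceeds the 3061 bases of its longest transcript in GENCODE M21. That shorter length placed Rbfox1 below the median and entered the length and GC correction. For 0 of the 10 genes were the groups apart, against 3.51% of 11647 genes. The largest difference was 3.03% longer in cKO, for Nova1, whose implied length was 3594 bases in Ctrl replicate 2 and 4011 and 4143 bases in the other Ctrl libraries. In all 10 genes the difference of the log2 values was smaller than 0.055, the 95th percentile of its size over all genes. A switch between isoforms of like length, such as skipping of the 34 bases of Ptbp2 exon 10, would be nearly invisible to this measure.

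Other RNA-binding proteins of splicing and stability were read from a list of 31 genes, all of which were tested. It holds the Celf, Mbnl, Khdrbs, Pum and Zfp36 families, the Fmr1 family, the Tia1 and Msi genes, and cofactors such as Srrm4, which is needed for neuronal microexons, and Raver1, a partner of Ptbp1. None of the 31 passed the adjusted threshold in edgeR, 0 in DESeq2, and 18 were above 0 and 13 below, with a median of 0.0061. Fitted values ran from -0.31 for Mbnl3, which was at under 2 CPM, to 0.34 for Mbnl2. In none of them were the groups apart, where 14.3% of all genes were. Celf1 to Celf6, which like the Elavl proteins act on both splicing and decay, had log2 fold changes of -0.16, 0.13, -0.16, 0.094, 0.0028 and -0.029, with adjusted p-values of 0.842 to 0.998. Elavl1, the ubiquitous HuR, was at -0.060 and Ptbp3 at 0.19. Only 1 of the 31 had an unadjusted p under 0.05 in edgeR, where 6.62% of all genes did. It was Msi1 (Musashi), an RNA-binding protein of neural stem cells, with 165, 183 and 148 CPM in Ctrl and 129, 150 and 129 CPM in cKO. Its highest cKO library was above its lowest Ctrl library, and the log2 fold change was -0.28 (SE 0.122, edgeR adjusted p = 0.731). The unadjusted threshold was missed by Msi1 without Ctrl replicate 1, Ctrl replicate 2, cKO replicate 1 or cKO replicate 3.

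Transcripts known as targets of the regulators gave 17 genes that were tested of 18 listed, Bdnf having failed the filter on low counts. Of these, 0 passed the adjusted threshold in edgeR and 0 in DESeq2, 10 were above 0 and 7 below, and the median was 0.035. In edgeR 2 of them, Numb and Dlg4, were past the unadjusted threshold, beside 6.62% of all genes, and the groups were apart for 3 of 17, beside 14.3% of all genes. In a fit blocked on replicate number, Dlg4 no longer passed the unadjusted threshold (log2 fold change -0.26, edgeR adjusted p = 0.700), nor did it without Ctrl replicate 1 or any 1 of the cKO libraries, and Numb did not without Ctrl replicate 3, cKO replicate 1 or cKO replicate 3. Dlg4, which encodes PSD-95 and with an exon that Ptbp proteins repress, after which the transcript decays, was at 241, 240 and 226 CPM in Ctrl and 180, 213 and 201 CPM in cKO. Every cKO library was lower (log2 fold change -0.25, SE 0.108, edgeR adjusted p = 0.731). Numb, a cell fate determinant with an exon regulated by Rbfox proteins, was at 18.53 ± 1.32 CPM in Ctrl and 23.2 ± 1.76 CPM in cKO, higher in each cKO library than in any Ctrl library. Its log2 fold change was 0.33 (SE 0.126), with an edgeR adjusted p of 0.667. Vamp1, a synaptic vesicle protein whose mRNA Rbfox1 binds, was at 6.09 ± 0.588 CPM in Ctrl and 5.39 ± 0.191 CPM in cKO (-0.18, SE 0.167, adjusted p = 0.873). Gap43, the Elavl4 target of growing axons, had a log2 fold change of -0.23 (adjusted p = 0.827) with overlapping groups, and Rest, the repressor of neuronal genes, one of 0.019.

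**Figure D4:**
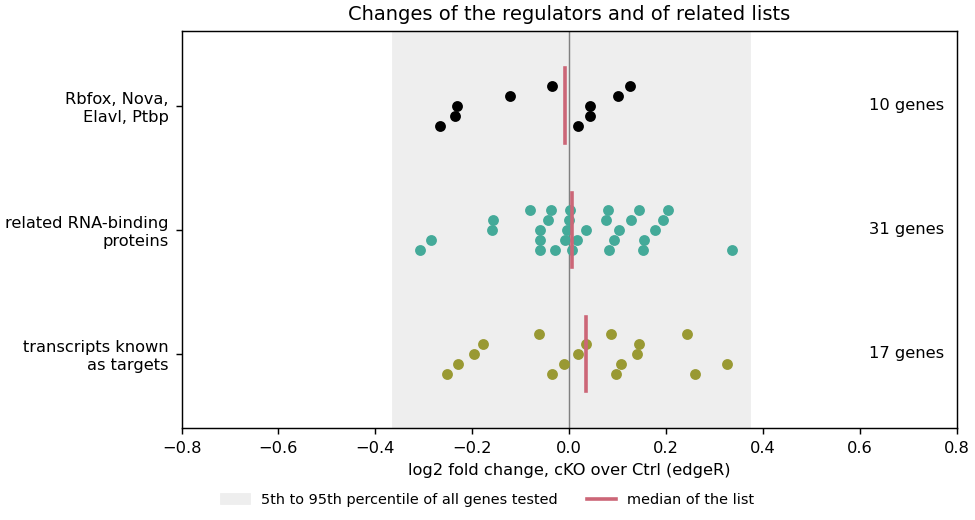
Log2 fold changes (cKO over Ctrl, edgeR, all 6 libraries) of the 10 regulators, the 31 related RNA-binding proteins and the 17 target transcripts tested, 1 point a gene, with the median of each list as a bar. Grey marks the 5th to 95th percentile of all genes tested, -0.36 to 0.37, which holds every point of the 3 lists.

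Cell type markers give the setting for these levels. None of the 14 marker lists had a gene past the adjusted threshold, and the summed level of each, in CPM of the unscaled total, overlapped between the groups. Radial glia markers summed to 759 to 1006 CPM in Ctrl and 874 to 990 CPM in cKO, intermediate progenitor markers to 362 to 401 and 343 to 417 CPM, proliferation genes to 486 to 571 and 495 to 541 CPM, and interneuron markers to 494 to 615 and 460 to 686 CPM. Deep-layer neuron markers summed to 850 to 1148 CPM in Ctrl and 932 to 1144 CPM in cKO, upper-layer markers to 2461 to 2607 and 2474 to 2766 CPM, and striatal markers, which a dissection could carry along, to 74.2 to 119 and 81.8 to 120.0 CPM. Glial lists were low, with astrocyte markers at 48.2 to 78.1 and 55.2 to 74.5 CPM, oligodendrocyte lineage markers at 59.4 to 77.0 and 53.4 to 84.4 CPM and microglia markers at 50.1 to 68.5 and 61.4 to 64.6 CPM. Erythroid genes, from blood left in the tissue, summed to 950.4 to 1365 CPM in Ctrl and 1000.1 to 1227 CPM in cKO. Endothelial and pericyte markers reached 318 to 370 CPM in Ctrl and 360 to 462 CPM in cKO. Of 83 marker genes tested, 5 had an unadjusted p under 0.05 in edgeR, beside 6.62% of all genes, with log2 fold changes of 0.52 for Syt1, -0.48 for Nefl, 0.31 for Pax6, 0.74 for Aqp4 and 0.27 for Pdgfrb. Their part in the values of the regulators was not tested.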

How the data were processed

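Cortical RNA of 3 Ctrl and 3 cKO embryonic samples was sequenced on a DNBSEQ instrument, and libraries were grouped and numbered by their labels. The authors deposited 1 table of 17348 genes with 27 columns, of which 18 were used and 0 further columns held per-sample values; the columns of the authors' own comparison were not used. The authors' estimated counts carry no scaling between libraries, and 89.4% of them were whole numbers (within 1e-09). The TPM values deposited by the authors are scaled by transcript length and to a common sum, and the FPKM values deposited by the authors by length and library total. The submitters' processing notes name HISAT2 2.2.1, Bowtie2 2.4.5, RSEM 1.3.1 and build GRCm38, without their roles. Annotation, read length and strand use are not given in the sources used here.

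Estimated counts were rounded, filtered with filterByExpr, scaled by TMM and compared with the quasi-likelihood test of edgeR 4.0.16 (R 4.3.3, no block, Benjamini-Hochberg over 13570 genes), which gave all fold changes, intervals and adjusted p-values. Precision was set by the spread between libraries (common biological coefficient of variation 0.147, 4 residual degrees of freedom) more than by depth (15091951 to 16885451 estimated counts); the floor of 3 counts covers counting error only. Ratios, sums, shares and implied lengths were compared by two-sided exact permutation tests. Implied length is estimated count over FPKM, centred on each library's median over 11647 genes with an FPKM of at least 1 throughout. No pair of libraries was a duplicate (chi-square per degree of freedom 3.41 to 62.4). Same-numbered Ctrl and cKO libraries deviated together across genes (correlations 0.103, 0.101 and 0.284), and the series' text speaks of 3 sequencing batches. Differently numbered libraries gave -0.191 to 0.0551, with deviations centred within each group, which lowers these values. The numbers were taken as possible pairs. The main fit and the main exact tests did not use them, and a fit with the replicate block was run as an alternative.

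Alternatives were the replicate block, RLE size factors, DESeq2 1.42.0, other filters, each library left out, removal of a smooth trend on transcript length and GC (mgcv 1.9.3, 13319 genes), FPKM or CPM for TPM, a pseudocount of 1, and, added after seeing the data, those for the Elavl4 share. The methods were tested on simulated data. For edgeR these had 1 dispersion for all genes and no trend on transcript length, unlike Ctrl replicate 2. There it found 35.8% of 1.5-fold and 88.1% of 2-fold changes, and smaller changes were not simulated. Members and lists were chosen with earlier results of these data known. Genes named are all 10 members, Ybx1, and in the related and target lists those past the threshold and, beyond them, up to 3 rises and 3 falls whose groups do not overlap; Msi1, the Celf genes, Mbnl2, Mbnl3, Elavl1, Ptbp3, Gap43, Rest and the markers Syt1, Nefl, Pax6, Aqp4 and Pdgfrb were named after their values were seen. Locations and sequences are from GENCODE M21 (GRCm38); all 10 members also matched the RefSeq table of GRCm38.p6, and protein sequences were not used here. Figures were drawn with matplotlib 3.10.9.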

Additional observations from a re-analysis of the deposited data

How the results depend on the processing

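Over the 13 alternative fits, Rbfox1, Rbfox2, Rbfox3, Elavl3 and Ptbp1 kept their direction and their adjusted p stayed above 0.05. Leaving out single libraries moved Rbfox1 from -0.27 to -0.15, Rbfox2 from -0.28 to -0.021, Rbfox3 from 0.062 to 0.18, Elavl3 from -0.29 to -0.19, Ptbp1 from 0.052 to 0.18, Nova1 from -0.0477 to 0.12 (log2 fold change), Nova2 from -0.12 to 0.052, Elavl2 from -0.43 to -0.14, Elavl4 from -0.032 to 0.13 and Ptbp2 from -0.029 to 0.18. Removing the trend on length and GC turned Nova1 to -0.11 and Elavl4 to -0.0083, and with the replicate block as well to -0.10 and -0.0080. The number of regulators called was 0 to 1 with a library left out, the 1 being Elavl2 without Ctrl replicate 2, and 0 in every other fit; for the related and target lists it was 0 throughout. The number of genes called was 10, 94 by DESeq2, 152 after the length and GC correction, 161 with the replicate block added to that, 8 to 122 with a library left out (122 without Ctrl replicate 2 and 19 without Ctrl replicate 3) and 857 at an unadjusted p under 0.05 with at least 1.2-fold change. The replicate block alone called 11 genes and 0 regulators, took Dlg4 over an unadjusted p of 0.05 and changed no call at the adjusted threshold among the regulators and the related and target lists. The causes of these moves were not tested.

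Leaving out single libraries moved the difference of the log2 ratio from -0.14 to 0.13 for Ptbp2 to Ptbp1, -0.11 to 0.15 for Nova1 to Nova2, 0.074 to 0.47 for Rbfox3 to Rbfox2 and -0.072 to 0.12 for Elavl3 to Elavl2, and that of the log2 family sum from -0.16 to 0.16 for Rbfox, -0.021 to 0.20 for Nova, -0.21 to 0.062 for Elavl and 0.088 to 0.35 for Ptbp. With FPKM the Rbfox difference was -0.072. For implied length, whose differences all lay near 0, the log2 difference ran from -0.0038 to 0.016 for Rbfox1, -0.0036 to 0.0092 for Rbfox2, -0.0088 to 0.012 for Rbfox3, -0.016 to 0.082 for Nova1, -0.0034 to 0.0030 for Nova2, -0.0049 to 0.0080 for Elavl2, -0.0045 to 0.0014 for Elavl3 and -0.0064 to 0.0058 for Ptbp1, and with TPM in place of FPKM it was 6.44e-05 for Nova2.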
